A study of Mus musculus with 54 samples.

Results

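Cdh1, Cdh2, Cdh3 and Cdh11, which encode E-cadherin, N-cadherin, P-cadherin and OB-cadherin, were followed through the step from mouse embryonic stem cells (ESC) to epiblast-like cells (EpiLC) and on to primordial germ cell-like cells (PGCLC) at day 2. The 4 genes were chosen by name, with earlier results of these data known, out of 20036 genes in the expression table. The lists of other genes used below were chosen in the same way. Counts of called genes among the members and lists are therefore descriptions. Each of the 4 genes was measured by poly(A) RNA sequencing in 9 lines at 3 stages, with 2 libraries for each of the 27 groups. The lines were wild type (WT), lines labelled Ovol1KO, Ovol2KO and Ovol3KO whose genotype is given as a mutant of that gene, a line labelled TKO, and 4 transgenic lines with an overexpression (OE) genotype, of which Cdh1-Tg carries the cadherin and Ovol2a/2b-Tg, Ovol2b-Tg and Ovol2a-Tg carry Ovol2 forms. All carried the strain label C57BL/6 X 129/SvJ, and no treatment other than the change of stage is given. The sources used here do not give what TKO removes, the background and promoter of the transgenic lines, or the number of clones. Column names of the Ovol2 transgenic lines carry the letters res, which may mean rescue in a mutant background. Differences of the transgenic lines from WT may therefore include effects of their background, which cannot be told apart from those of the transgene.

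Classical cadherins are calcium-dependent adhesion proteins that bind the same or a related cadherin on the next cell. Their cytoplasmic tails bind beta-catenin or plakoglobin and p120-catenin, and alpha-catenin links this complex to actin. In the mouse embryo, epiblast cells that enter the primitive streak exchange E-cadherin for N-cadherin as they become mesoderm, which is known as the cadherin switch, and Snail, Zeb and Twist family factors repress Cdh1 in that setting. Primordial germ cells form close to this region and carry E-cadherin. The Ovol genes encode DNA-binding zinc finger proteins, and Ovol2 is known to maintain the epithelial state.

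Values are transcripts per 1000000 (TPM), which are scaled by gene length and to the same total in every library, so they show shares of the mRNA. Differences are log2 fold changes on the log2(TPM + 1) scale with their standard error (SE) from limma, and a gene was called changed when its Benjamini-Hochberg (BH) adjusted p was under 0.05 with a log2 fold change of at least 1. Because 1 is added, the fold of genes at low TPM is understated. Whether the 2 libraries of a group came from separate cultures is not stated, so p-values cover only the spread between these libraries, which may be technical. The reads recovered from the TPM values totalled 2.16 to 26.73 M per library (M, 1000000 reads), and the members had between 5 (Cdh11) and 21809 (Cdh1) reads in a library. The ESC and EpiLC stages carried their markers. The 6 naive genes summed to 797 to 1350 TPM in ESC and 20.2 to 160 in EpiLC. The 5 formative markers summed to 1430 to 2663 TPM in EpiLC and 88.1 to 360 in ESC. The 6 PGCLC markers did not mark the PGCLC stage against ESC: in WT they summed to 382 to 407 TPM in ESC, at most 21.5 in EpiLC and 123 to 124 in PGCLC. In 8 libraries, those of Ovol2a-Tg PGCLC and of Cdh1-Tg at all stages, the cell type tag differed from the title, and the title was used. Gene-level values did not show a loss at every stage for any of the 3 mutant labels, and they do not tell whether a mutated part was transcribed. Ovol2 in Ovol2KO was at 15.3 and 14.1 TPM in ESC (WT 10.6 and 4.98), 33.7 and 34.6 in EpiLC (WT 9.51 and 12.7) and 4.74 and 6.68 in PGCLC (WT 11.3 and 6.98). Ovol3 in Ovol3KO was below WT in EpiLC (5.8 and 5.66 TPM against 13.0 and 10.4) and overlapped it in ESC and PGCLC. Ovol1 in Ovol1KO PGCLC overlapped WT at 0.95 and 1.35 TPM. Ovol2 reached 296 to 3400 TPM in the PGCLC of the 3 Ovol2 transgenic lines. It was at 1.52 and 0.835 TPM in TKO PGCLC and at 1.46 and 1.46 in Cdh1-Tg PGCLC, below both WT libraries. In TKO it overlapped WT in ESC (3.72 and 6.57 TPM) and in EpiLC (9.21 and 11.2 TPM). In Cdh1-Tg it was also below WT in ESC (1.8 and 1.5 TPM) but within the WT range in EpiLC (11.2 and 10.5 TPM). Effects of the Cdh1 transgene and of low Ovol2 therefore cannot be told apart in Cdh1-Tg PGCLC against WT. Whether Cdh1 reads of Cdh1-Tg come from the introduced or the endogenous gene cannot be told apart at the gene level.

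Cdh1 lies on mouse chromosome 8 (GRCm38, 106603351 to 106670246, plus strand) and Cdh3 lies upstream of it on the same strand (106510891 to 106557297), 46.1 kb away. Cdh11 lies 3.73 Mb from Cdh3 on the minus strand (102632095 to 102785642), and Cdh2 lies on chromosome 18 (16588877 to 16809246, minus strand). Over the 54 libraries Cdh1 spanned 17.2 to 714 TPM, Cdh2 3.72 to 219, Cdh3 6.72 to 93.0 and Cdh11 0.280 to 58.5. The highest group mean was 33.7 times the lowest for Cdh1, 49.7 times for Cdh2, 12.6 times for Cdh3 and 157 times for Cdh11. The groups with the highest means differed by gene: EpiLC of Cdh1-Tg and Ovol3KO for Cdh1, PGCLC of TKO and Cdh1-Tg for Cdh2, EpiLC of Ovol3KO for Cdh3 and PGCLC of Cdh1-Tg for Cdh11. When the 27 groups were put in order of their means, the libraries of neighbouring groups overlapped in 15 of 26 steps for Cdh1, 17 for Cdh2, 14 for Cdh3 and 20 for Cdh11. For Cdh1, the 5 lowest groups were all PGCLC, in the order Ovol2a/2b-Tg, Ovol2a-Tg, Ovol2b-Tg, Ovol2KO and TKO, and no neighbours among them overlapped. For Cdh2, the 8 highest groups were the PGCLC of every line except Ovol3KO.

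**Figure D1:**
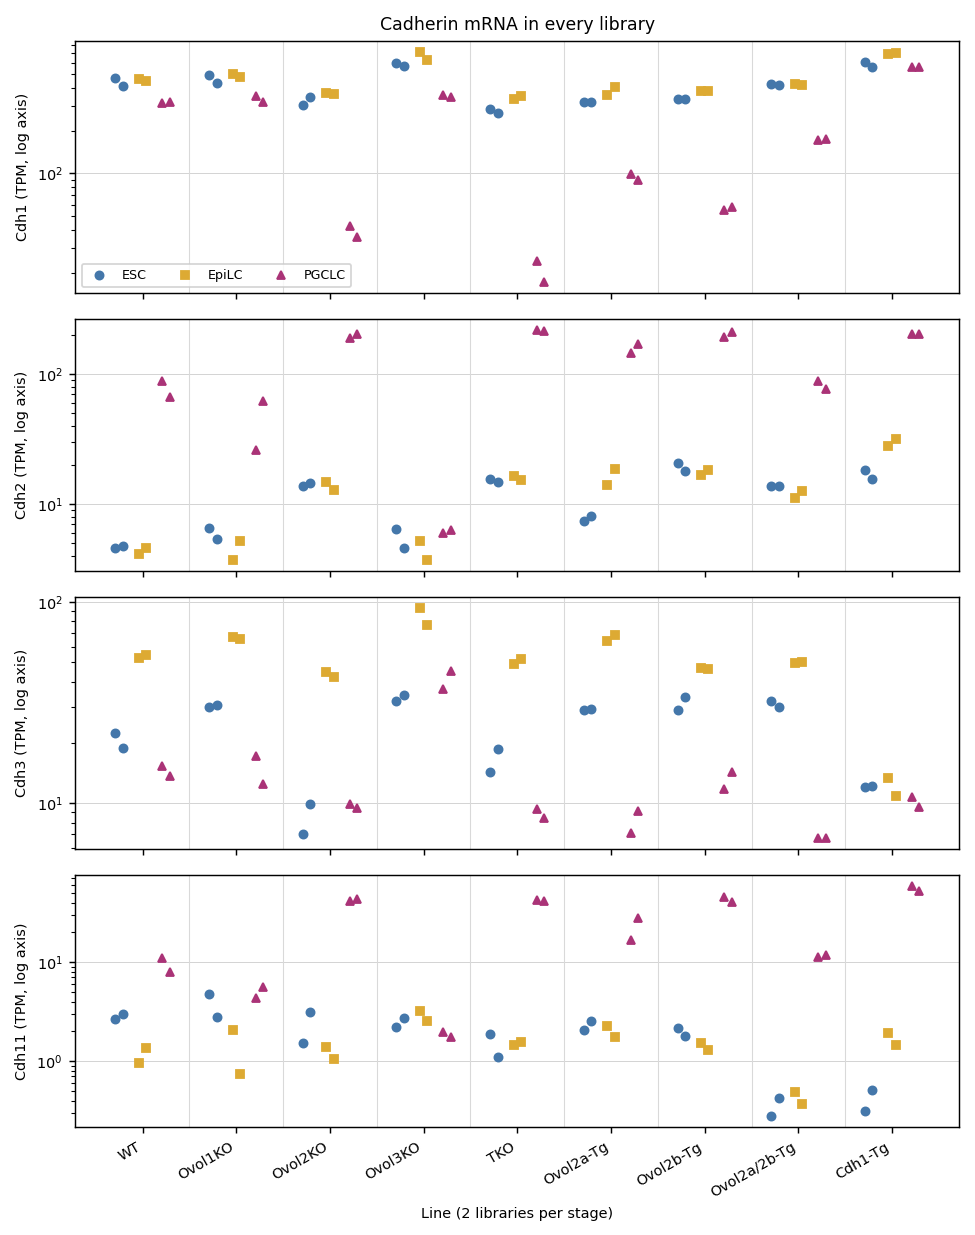
TPM of Cdh1, Cdh2, Cdh3 and Cdh11 (log axes) in the 2 libraries of each line at ESC, EpiLC and PGCLC; each point is 1 library. Cdh1 is lowest in PGCLC of Ovol2KO, TKO and the 3 Ovol2 transgenic lines, with TKO at 24.0 and 17.2 TPM, and Cdh2 is high in PGCLC of every line except Ovol3KO.

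In WT, Cdh2 and Cdh11 rose and Cdh3 fell from EpiLC to PGCLC while Cdh1 stayed the most abundant of the 4. In these bulk samples, fewer cells of a type and less RNA per cell cannot be told apart. Cdh1 stood at 468 and 411 TPM in ESC, 461 and 451 in EpiLC and 312 and 320 in PGCLC. It was therefore lower in both PGCLC libraries than in all earlier WT libraries, by a log2 difference of -0.53 ± 0.09 (SE) from EpiLC that stayed below the fold threshold (limma, BH adjusted p = 7.7e-06). Cdh2 stood at 4.60 and 4.78 TPM in ESC, 4.14 and 4.63 in EpiLC and 89.3 and 66.7 in PGCLC. The ESC and EpiLC libraries overlapped, and both PGCLC libraries lay far above them (log2 fold change 3.86 ± 0.21 from EpiLC, limma, BH adjusted p = 1.2e-17).

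Cdh11, known from mesenchymal tissue and bone, stood at 2.67 and 2.97 TPM in WT ESC, 0.968 and 1.37 in EpiLC and 10.9 and 7.91 in PGCLC, without overlap between stages. Its rise from EpiLC to PGCLC was 2.25 ± 0.24 on the log2 scale (limma, BH adjusted p = 4.2e-10). Cdh3, known from placenta and epidermis, ran the other way: 22.4 and 18.8 TPM in ESC, 52.9 and 54.5 in EpiLC and 15.3 and 13.7 in PGCLC. It rose into EpiLC by 1.35 ± 0.14 (limma, BH adjusted p = 3.2e-10) and fell into PGCLC by 1.82 ± 0.14 on the log2 scale (limma, BH adjusted p = 2.0e-13). So 1 of 4 members was called from ESC to EpiLC, where 20.6% of all tested genes were called, and 3 of 4 from EpiLC to PGCLC, where 21.1% were. The median of all genes lay 0.15 above 0 on the log2 scale in this last comparison, and relative to it the Cdh1 difference would be larger and the Cdh2 and Cdh11 differences smaller by that amount.

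Among PGCLC compared with WT PGCLC, Cdh1 fell in Ovol2KO, TKO, Ovol2a-Tg and Ovol2b-Tg. The Ovol2KO libraries had 42.3 and 35.4 TPM and the TKO libraries 24.0 and 17.2, against 312 and 320 in WT. No library of these lines came near a WT library, and the TKO values rest on 137 and 414 reads. The mean was 8.13-fold lower in Ovol2KO (-3.00 ± 0.11 on the log2 scale, limma, BH adjusted p = 2.5e-10) and 15.3-fold lower in TKO (-3.89 ± 0.11, limma, BH adjusted p = 2.2e-11). Cdh1 in Ovol1KO (350 and 317 TPM) overlapped WT, and in Ovol3KO (355 and 348 TPM) it lay above WT by 0.16 ± 0.11, which did not pass the test (limma, BH adjusted p = 0.29).

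Among the transgenic PGCLC, Cdh1 was at 173 and 174 TPM in Ovol2a/2b-Tg, 98.4 and 90.3 in Ovol2a-Tg and 54.8 and 58.0 in Ovol2b-Tg, all below WT. It fell by 1.73 ± 0.11 on the log2 scale in Ovol2a-Tg (limma, BH adjusted p = 2.9e-07) and by 2.46 ± 0.11 in Ovol2b-Tg (limma, BH adjusted p = 5.7e-09). In Ovol2a/2b-Tg the difference of -0.86 ± 0.11 stayed below the fold threshold (limma, BH adjusted p = 4.0e-05). Cdh1-Tg was the line above WT, with 562 and 563 TPM. Its difference of 0.83 ± 0.11 was also below the fold threshold (limma, BH adjusted p = 4.2e-05), so the level of Cdh1 mRNA in this line was 1.78 times that of WT.

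Cdh2 rose in the PGCLC of 5 lines and fell in 1. It was at 192 and 206 TPM in Ovol2KO, 219 and 216 in TKO, 194 and 211 in Ovol2b-Tg and 204 and 205 in Cdh1-Tg, each above the WT pair of 89.3 and 66.7. The log2 fold changes of these 4 lines were 1.35, 1.48, 1.38 and 1.39, each ± 0.27 (limma, BH adjusted p = 0.0024, 0.00088, 0.0019 and 0.0013). They lay close together. Cdh1 in the same libraries ran from 17.2 TPM in TKO to 563 in Cdh1-Tg, the line labelled as carrying Cdh1. Whether Cdh2 depends on Cdh1 was not tested. In Ovol2a-Tg, Cdh2 was at 147 and 172 TPM and rose by 1.04 ± 0.27 (limma, BH adjusted p = 0.020). That call was lost without WT replicate 2 (0.83) or without Ovol2a-Tg replicate 2 (0.92). In Ovol2a/2b-Tg, the 88.3 and 77.7 TPM of Cdh2 lay within the WT range, with a difference of 0.10 ± 0.27 (limma, BH adjusted p = 0.82).

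In Ovol3KO, Cdh2 was at 5.96 and 6.30 TPM, close to its level in ESC and EpiLC, and fell by 3.46 ± 0.27 on the log2 scale from WT PGCLC (12.7-fold in the means, limma, BH adjusted p = 5.4e-07). The median of all genes lay 0.12 below 0 in that comparison. In Ovol1KO the Cdh2 values of 26.3 and 62.7 TPM were both below WT but stood apart from each other, and the difference of -0.91 ± 0.27 did not pass the test (limma, BH adjusted p = 0.096). Without Ovol1KO replicate 2, the difference was -1.52 and passed.

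Cdh11 followed the direction of Cdh2 in PGCLC in each line where both were called. It was at 41.5 and 43.5 TPM in Ovol2KO, 42.4 and 41.3 in TKO, 45.6 and 40.2 in Ovol2b-Tg and 58.5 and 52.0 in Cdh1-Tg, against 10.9 and 7.91 in WT. All of these libraries lay above WT, and Cdh1-Tg lay above the others without overlap. The log2 fold changes were 2.08 in Ovol2KO, 2.06 in TKO, 2.09 in Ovol2b-Tg and 2.45 in Cdh1-Tg, each ± 0.19 (limma, BH adjusted p = 1.6e-06, 1.0e-06, 1.3e-06 and 1.9e-07).

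In Ovol2a-Tg the pair of Cdh11 values was wide, 16.9 and 27.9 TPM, and its rise of 1.15 ± 0.19 (limma, BH adjusted p = 0.00074) fell below the fold threshold without WT replicate 2 (0.94) or without Ovol2a-Tg replicate 2 (0.80). Ovol2a/2b-Tg had 11.4 and 11.8 TPM, just above WT, with a difference of 0.30 ± 0.19 that did not pass (limma, BH adjusted p = 0.26). Ovol3KO had 1.97 and 1.74 TPM, and Cdh11 fell there by 1.85 ± 0.19 on the log2 scale (limma, BH adjusted p = 1.8e-06). Ovol1KO had 4.36 and 5.67 TPM, below both WT libraries, with a difference of -0.78 ± 0.19 that stayed below the fold threshold (limma, BH adjusted p = 0.044).

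Cdh3 behaved differently from the other 3 genes. Against 15.3 and 13.7 TPM in WT PGCLC, it rose in Ovol3KO, to 36.7 and 45.1 TPM (1.43 ± 0.16, limma, BH adjusted p = 5.4e-06). It was at 6.72 and 6.74 TPM in Ovol2a/2b-Tg, the lowest group of all, and fell there by 1.0 ± 0.16 (on the log2 scale, limma, BH adjusted p = 0.00026), a call at the edge of the threshold that was lost without WT replicate 1 (-0.93). In Ovol2KO it was at 9.88 and 9.51 TPM, in TKO at 9.40 and 8.43, in Ovol2a-Tg at 7.13 and 9.10 and in Cdh1-Tg at 10.7 and 9.59. These 4 lines lay below WT without overlap, and their differences of -0.54, -0.65, -0.77 and -0.48 stayed below the fold threshold.

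Counted over the members, 0 of 4 were called in Ovol1KO PGCLC against WT, where 0.666% of all tested genes were called. In Ovol2KO 3 of 4 were called (8.18% of all genes), in Ovol3KO 3 (12.8%), in TKO 3 (10.5%), in Ovol2a-Tg 3 (3.43%), in Ovol2b-Tg 3 (8.3%), in Ovol2a/2b-Tg 1 (7.62%) and in Cdh1-Tg 2 (9.86%). The 3 called in Ovol3KO were Cdh2, Cdh3 and Cdh11, and the 3 called in Ovol2KO, TKO, Ovol2a-Tg and Ovol2b-Tg were Cdh1, Cdh2 and Cdh11. All 8 comparisons share the same 2 WT libraries.

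**Figure D2:**
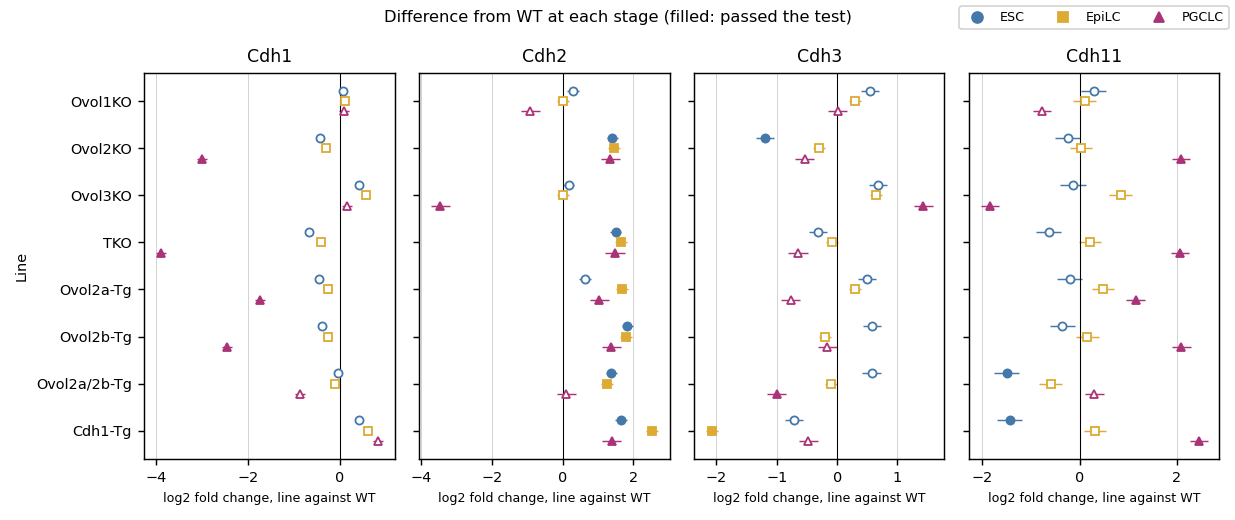
Log2 fold change of each line against WT of the same stage (x axis) for the 4 genes, with SE bars from limma; filled symbols passed both thresholds. Cdh1 differences lie between -0.67 and 0.61 in ESC and EpiLC and reach -3.89 in PGCLC of TKO, whereas Cdh2 differences of Ovol2KO, TKO and Ovol2b-Tg lie between 1.35 and 1.83 at every stage.

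Before the PGCLC stage, Cdh2 was called in several lines, and Cdh1 showed smaller differences that stayed below the fold threshold. In ESC, where WT had 4.60 and 4.78 TPM, Cdh2 was at 13.9 and 14.5 TPM in Ovol2KO, 15.5 and 14.7 in TKO, 18.2 and 15.5 in Cdh1-Tg, 20.6 and 18 in Ovol2b-Tg and 13.8 and 13.9 in Ovol2a/2b-Tg. No library of these lines overlapped WT, and the log2 fold changes in that order were 1.41, 1.5, 1.65, 1.83 and 1.38, each ± 0.16 (limma, BH adjusted p from 1.9e-06 to 3.1e-05). Ovol2a-Tg ESC lay lower, at 7.46 and 8.13 TPM, and its 0.63 ± 0.16 stayed below the fold threshold (limma, BH adjusted p = 0.0080). These levels are 2.95 to 4.12 times WT in the means of the 5 lines, and still far below the 66.7 TPM of the lower WT PGCLC library.

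In EpiLC the same held in 6 lines. Against 4.14 and 4.63 TPM in WT, Cdh2 was at 14.8 and 12.9 in Ovol2KO, 16.5 and 15.3 in TKO, 16.8 and 18.2 in Ovol2b-Tg, 28.3 and 31.9 in Cdh1-Tg, 14.0 and 18.5 in Ovol2a-Tg and 11.2 and 12.7 in Ovol2a/2b-Tg. No library overlapped WT. The rise in that order was 1.46, 1.65, 1.78, 2.53, 1.67 and 1.26 on the log2 scale, each ± 0.17 (limma, BH adjusted p from 2.3e-08 to 3.9e-05). In Ovol1KO and Ovol3KO the Cdh2 libraries of ESC and EpiLC spanned 3.72 to 6.53 TPM and none of the 4 differences passed.

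Cdh1 was called in no line in ESC or EpiLC, although 6 of 8 lines at each stage had an adjusted p under 0.05, with differences as large as that between WT PGCLC and EpiLC in some. In EpiLC it was 0.56 ± 0.06 higher in Ovol3KO (714 and 631 TPM) and 0.61 ± 0.06 higher in Cdh1-Tg (689 and 701 TPM) than in WT (limma, BH adjusted p = 1.0e-05 and 1.8e-06). It was 0.31 ± 0.06 lower in Ovol2KO (370 and 364 TPM) and 0.41 ± 0.06 lower in TKO (336 and 350 TPM; limma, BH adjusted p = 0.0049 and 0.00030). In ESC the furthest below WT was TKO, at 285 and 266 TPM (-0.67 ± 0.08, limma, BH adjusted p = 4.2e-05).

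Cdh3 and Cdh11 were called in few lines before PGCLC. Cdh3 fell in ESC of Ovol2KO, to 7.04 and 9.88 TPM (-1.20 ± 0.15, limma, BH adjusted p = 0.00011), a call lost without Ovol2KO replicate 1 (-0.98) and in a fit of these 4 libraries alone (limma, BH adjusted p = 0.080). In Cdh1-Tg, Cdh3 did not show the EpiLC peak of the other lines: it was at 12.0 and 12.1 TPM in ESC, 13.3 and 10.8 in EpiLC and 10.7 and 9.59 in PGCLC. Against WT EpiLC it fell by 2.08 ± 0.10 (limma, BH adjusted p = 4.3e-10). Cdh11 fell in ESC of Ovol2a/2b-Tg (0.280 and 0.424 TPM; -1.5 ± 0.26) and of Cdh1-Tg (0.310 and 0.513 TPM; -1.44 ± 0.26), values that rest on 5 to 16 reads (limma, BH adjusted p = 0.0010 and 0.00098).

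The share of all tested genes called was 0.541% for Ovol1KO ESC against WT with 0 of 4 members called, 3.36% for Ovol2KO with 2, 1.85% for Ovol3KO with 0, 4.08% for TKO with 1, 4.95% for Ovol2a-Tg with 0, 5.56% for Ovol2b-Tg with 1, 4.31% for Ovol2a/2b-Tg with 2 and 6.4% for Cdh1-Tg with 2. For EpiLC it was 0.486% for Ovol1KO with 0 of 4 members called, 1.42% for Ovol2KO with 1, 2.85% for Ovol3KO with 0, 2.3% for TKO with 1, 2.06% for Ovol2a-Tg with 1, 1.67% for Ovol2b-Tg with 1, 4.5% for Ovol2a/2b-Tg with 1 and 6.38% for Cdh1-Tg with 2. Apart from Cdh1-Tg, the member called in EpiLC was Cdh2. Cdh11 in Ovol3KO EpiLC (3.22 and 2.56 TPM, WT 0.968 and 1.37) had a difference of 0.84 that was called with a pseudocount of 0.1 (1.25) and with limma-voom (1.16). These EpiLC shares depend on the setting: with a pseudocount of 0.1, 7 of the 8 counts of all genes called were 1.73 to 2.09 times as high.

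A test of the difference between a line's effect in PGCLC and its effect in EpiLC separated the genes further. For Cdh1 the PGCLC effect lay below the EpiLC effect by 2.68 ± 0.13 in Ovol2KO, 3.48 ± 0.13 in TKO, 1.47 ± 0.13 in Ovol2a-Tg and 2.21 ± 0.13 in Ovol2b-Tg (limma, BH adjusted p from 1.6e-20 to 2.0e-09). For Cdh2 no such difference passed in these 4 lines, with values of -0.11, -0.17, -0.63 and -0.40, each ± 0.29 (limma, BH adjusted p from 0.23 to 0.86). Cdh2 in Ovol3KO did differ, by -3.47 ± 0.29 (limma, BH adjusted p = 2.1e-11). The members called in this test numbered 0 of 4 in Ovol1KO (0.576% of all genes), 2 in Ovol2KO (7.71%), 2 in Ovol3KO (16.1%), 2 in TKO (9.41%), 2 in Ovol2a-Tg (3.01%), 2 in Ovol2b-Tg (7.6%), 1 in Ovol2a/2b-Tg (7.07%) and 3 in Cdh1-Tg (9.61%). Without PGCLC WT replicate 1, the Cdh2 difference was no longer called in Ovol2a/2b-Tg (-0.95) and Cdh1-Tg (-0.93), nor the Cdh3 difference in Ovol2a-Tg (-0.99).

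Set against its own EpiLC, each line changed its cadherins as follows. Cdh2 rose into PGCLC in 8 of 9 lines, by 2.70 in Ovol2a/2b-Tg to 3.86 in WT on the log2 scale, and by 0.39 ± 0.21 in Ovol3KO, which did not pass (limma, BH adjusted p = 0.11). Cdh11 likewise rose in 8 lines, by 1.37 in Ovol1KO to 4.39 in Cdh1-Tg, and had a difference of -0.44 ± 0.24 in Ovol3KO (limma, BH adjusted p = 0.12). The call in Ovol1KO was lost without EpiLC replicate 2 (0.95). Cdh1 fell in 5 lines, with log2 fold changes of -1.27 in Ovol2a/2b-Tg, -2.0 in Ovol2a-Tg, -2.74 in Ovol2b-Tg, -3.21 in Ovol2KO and -4.01 in TKO, each ± 0.09. In Ovol3KO its difference was -0.93 ± 0.09, below the fold threshold (past it, at -1.02, without EpiLC Ovol3KO replicate 2), and in Cdh1-Tg -0.30 ± 0.09.

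Cdh3 fell into PGCLC in 8 lines, by 1.04 in Ovol3KO to 2.89 in Ovol2a-Tg, each ± 0.14, and had a difference of -0.22 ± 0.14 in Cdh1-Tg. The call in Ovol3KO was lost without EpiLC replicate 1 (-0.90) or PGCLC replicate 1 (-0.89). The share of all genes called from EpiLC to PGCLC was 17.2% in Ovol1KO with 3 of 4 members called, 24.3% in Ovol2KO with 4, 12.8% in Ovol3KO with 1, 24.5% in TKO with 4, 19.8% in Ovol2a-Tg with 4, 23.8% in Ovol2b-Tg with 4, 24.2% in Ovol2a/2b-Tg with 4 and 22.9% in Cdh1-Tg with 2.

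Within a library, the log2 ratio of Cdh2 to Cdh1 (each TPM + 1) ran from -6.68 to -3.96 in ESC, -7.06 to -4.27 in EpiLC and -5.68 to 3.58 in PGCLC. It was -2.02 ± 0.32 (SD, n = 2) in WT PGCLC. Cdh2 exceeded Cdh1 in 8 libraries, the pairs of PGCLC from TKO (3.36 ± 0.31), Ovol2KO (2.34 ± 0.25), Ovol2b-Tg (1.82 ± 0.04) and Ovol2a-Tg (0.75 ± 0.24). Ovol2a/2b-Tg stood at -1.06 ± 0.13 and Cdh1-Tg at -1.46 ± 0.01, both above WT, and Ovol1KO at -3.00 ± 0.97 and Ovol3KO at -5.63 ± 0.07, both below. No test was made on this ratio.

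**Figure D3:**
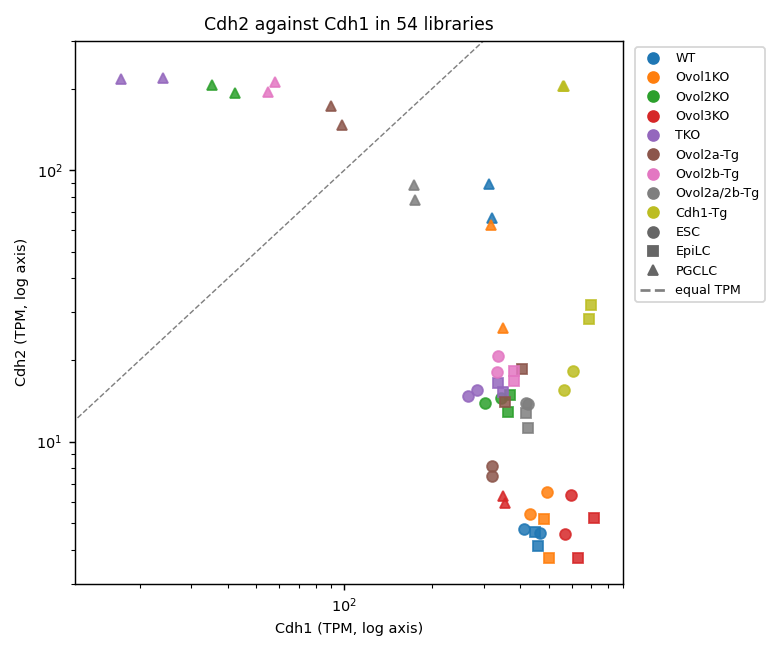
Cdh2 against Cdh1 in TPM (log axes) in 54 libraries, coloured by line and shaped by stage; the dashed line marks equal TPM. The 8 libraries above the line are PGCLC of TKO, Ovol2KO, Ovol2b-Tg and Ovol2a-Tg, and the Cdh1-Tg PGCLC pair sits alone at the upper right with 562 and 563 TPM of Cdh1 and 204 and 205 of Cdh2.

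The summed TPM of the 4 cadherins in PGCLC was 418 in WT, 289 in TKO, 290 in Ovol2KO, 315 in Ovol2b-Tg, 285 in Ovol2a-Tg, 275 in Ovol2a/2b-Tg, 398 in Ovol1KO, 400 in Ovol3KO and 832 in Cdh1-Tg. Cdh1 made up 75.7% of it in WT and 7.11% in TKO. Cdh2 took 18.6% in WT, 75.3% in TKO and 68.5% in Ovol2KO, and Cdh11 took 2.25%, 14.5% and 14.7% in the same order. In Ovol3KO PGCLC the make-up of 87.8% Cdh1, 1.53% Cdh2, 10.2% Cdh3 and 0.463% Cdh11 was near that of WT EpiLC, which was 88.5%, 0.852%, 10.4% and 0.228%. This likeness is of shares only. The summed TPM was 515 in WT EpiLC and 765 in Ovol3KO EpiLC, both above the 400 of Ovol3KO PGCLC.

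**Figure D4:**
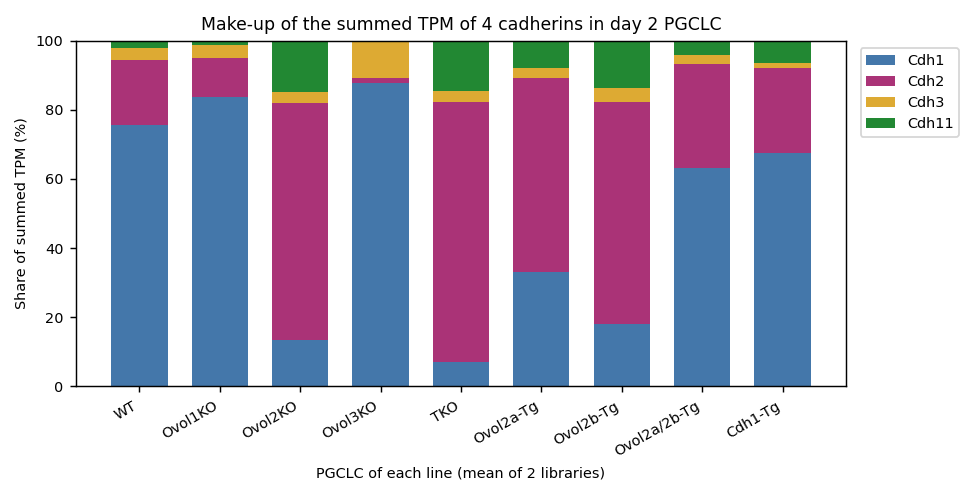
Share of the summed TPM of Cdh1, Cdh2, Cdh3 and Cdh11 in PGCLC of each line, as the mean of 2 libraries (y axis, percent). Cdh1 takes 75.7% in WT, 13.4% in Ovol2KO and 7.11% in TKO, and Cdh2 takes 1.53% in Ovol3KO.

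The lines were also compared with each other as PGCLC. TKO lay below Ovol2KO in Cdh1 by 0.90 ± 0.11 on the log2 scale, short of the fold threshold (limma, BH adjusted p = 0.00026), and 0 of 4 members were called where 0.985% of all genes were. It was called without Ovol2KO replicate 2 (-1.02), without TKO replicate 1 (-1.13) and with limma-voom on the recovered reads (-1.13). The choice of TKO as the reference for the transgenic lines came after the values were seen and is not stated by the labels. Against TKO, Cdh1 was higher by 2.16 in Ovol2a-Tg, 1.43 in Ovol2b-Tg, 3.03 in Ovol2a/2b-Tg and 4.72 in Cdh1-Tg, each ± 0.11 and each called (limma, BH adjusted p from 1.2e-12 to 9.4e-06).

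Cdh2 and Cdh11 did not move with Cdh1 in all of these comparisons. In Ovol2a/2b-Tg, Cdh2 was lower than in TKO by 1.38 ± 0.27 and Cdh11 by 1.76 ± 0.19, and both were called (limma, BH adjusted p = 0.0015 and 6.6e-06). In Cdh1-Tg the same differences were -0.09 ± 0.27 and 0.39 ± 0.19, and neither passed (limma, BH adjusted p = 0.87 and 0.17). The members called against TKO were 1 of 4 in Ovol2a-Tg (3.29% of all genes), 1 in Ovol2b-Tg (0.354%), 3 in Ovol2a/2b-Tg (8.37%) and 1 in Cdh1-Tg (2.3%). All 4 comparisons share the TKO libraries. Cdh11 in Ovol2a-Tg was not called against TKO (-0.91), and that value ran from -1.26, which was called, to -0.57 with 1 library left out.

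Among the 3 Ovol2 transgenic lines, Ovol2a/2b-Tg had more Cdh1 than Ovol2b-Tg (1.61 ± 0.11) with less Cdh2 (-1.28 ± 0.27) and less Cdh11 (-1.79 ± 0.19), and these 3 of 4 members were called where 5.17% of all genes were. Against Ovol2a-Tg the same line differed by 0.88 in Cdh1, -0.94 in Cdh2 and -0.85 in Cdh11, and 0 of 4 were called (2.39% of all genes). With 1 library left out, that Cdh11 difference ran from -1.20, which was called, to -0.50. Ovol2a-Tg against Ovol2b-Tg also gave 0 of 4 (0.93% of all genes), with Cdh1 0.73 ± 0.11 higher and a Cdh11 difference of -0.94 that ran from -1.29, which was called, to -0.60 with 1 library left out. Ovol2 mRNA in these PGCLC was 3400 and 3190 TPM in Ovol2a/2b-Tg, 900 and 867 in Ovol2a-Tg and 345 and 296 in Ovol2b-Tg. The 3 lines thus ran in the same order in Ovol2 as in Cdh1. WT PGCLC had less Ovol2 than these lines (11.3 and 6.98 TPM) and more Cdh1 (312 and 320 TPM). The lines carry different Ovol2 forms, and whether Cdh1 follows the amount of Ovol2 was not tested.

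Of the 8 transcriptional repressors of Cdh1 listed (Snai1, Snai2, Zeb1, Zeb2, Twist1, Twist2, Tcf3 and Tcf4), 6 passed the test in Ovol2KO PGCLC and 6 in TKO, all higher than in WT. The median log2 difference of the list was 1.38 in Ovol2KO and 1.83 in TKO, beside 0.04 and 0.03 over all genes, of which 8.18% and 10.5% were called. Zeb1, which binds E-boxes of the Cdh1 promoter, was at 1.02 and 0.379 TPM in WT, 10.5 and 10.4 in Ovol2KO and 12.7 and 11.7 in TKO (log2 fold change 2.78 and 2.99). Twist2, a helix-loop-helix factor, was at 1.28 and 1.20 TPM in WT, 21.7 and 20.8 in Ovol2KO and 24.2 and 28.0 in TKO (3.31 and 3.59). Both genes stood apart from WT in every library of these lines.

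In each of the 4 transgenic lines the same 5 repressors were higher than in WT PGCLC and passed: Snai2, Zeb1, Zeb2, Twist1 and Twist2. Of all genes, 3.43% were called in Ovol2a-Tg, 8.3% in Ovol2b-Tg, 7.62% in Ovol2a/2b-Tg and 9.86% in Cdh1-Tg. This held in Ovol2a/2b-Tg, where Cdh1 was lower than in WT but short of the fold threshold (-0.86). It also held in Cdh1-Tg, where Zeb1 reached 14.9 and 16.6 TPM (log2 fold change 3.33). Snai2 reached 36.6 and 35.7 TPM there, beside 5.24 and 1.72 in WT (3.17). Whether these genes acted on Cdh1 was not tested. In Ovol3KO, where 12.8% of all genes were called, 4 of 8 were lower: Snai1, at 6.98 and 8.72 TPM beside 62.9 and 46.8 in WT (-2.65), Snai2 (-1.56), Zeb2 (-1.52) and Twist1 (-1.64). In Ovol1KO none of the 8 passed. WT itself changed 6 of 8 from EpiLC to PGCLC (21.1% of all genes), all upwards, with Snai1 from 3.31 and 3.56 to 62.9 and 46.8 TPM, while Zeb1 was not among them.

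**Figure D5:**
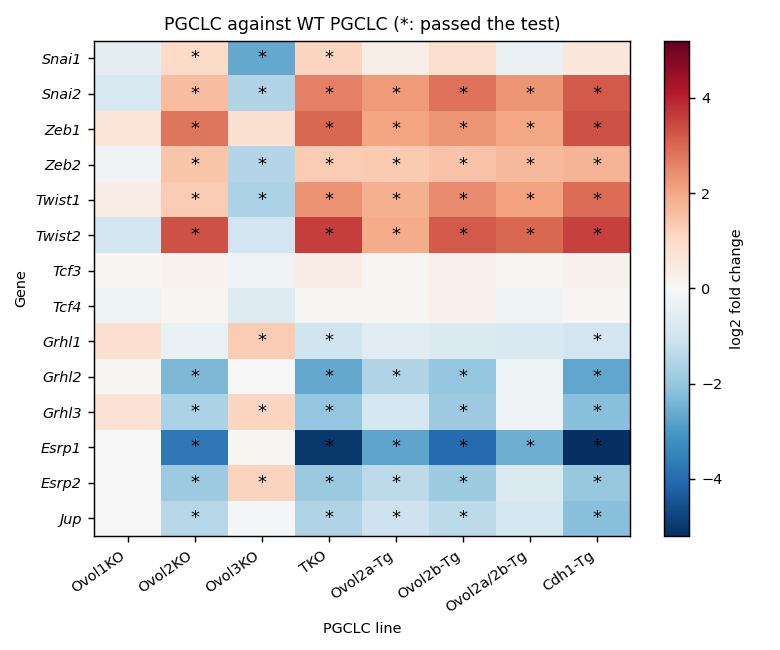
Log2 fold change against WT PGCLC (colour) of the 8 listed repressors of Cdh1, of 5 epithelial regulators and of Jup in the PGCLC of 8 lines; asterisks mark genes that passed both thresholds. Zeb1 and Twist2 are higher and Esrp1 lower in Ovol2KO, TKO and all 4 transgenic lines, and Snai1 is lowest in Ovol3KO (-2.65).

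Some repressors were also called in EpiLC, where the Cdh1 differences from WT stayed below the fold threshold in every line. Snai2 and Zeb1 were called higher in Ovol2KO EpiLC (1.72 and 1.88), and Snai2, Zeb1 and Twist1 in TKO EpiLC (2.03, 2.28 and 1.88). Of all genes, 1.42% and 2.3% were called in these comparisons. In the transgenic EpiLC 3 to 5 of the 8 were called higher, beside 1.67% to 6.38% of all genes, with 5 in Cdh1-Tg, where Twist1 rose by 2.46. In Ovol1KO EpiLC it was Twist1 (1.03), beside 0.486% of all genes. In ESC, Zeb1 alone was called, in 6 lines, with log2 fold changes from 1.05 in Ovol2a-Tg to 1.52 in Cdh1-Tg. In these lines 3.36% to 6.4% of all genes were called. Ovol1KO and Ovol3KO were the lines without that call.

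Of the 11 epithelial regulators listed, 4 passed in Ovol2KO PGCLC and 7 in TKO, all lower than in WT, beside 8.18% and 10.5% of all genes. The list holds Ovol1, Ovol2 and Ovol3, so the counts in this paragraph can include genes that the lines are named for. Esrp1, a splicing regulator of epithelial isoforms, was at 54.9 and 49.3 TPM in WT, 3.44 and 2.58 in Ovol2KO and 0.195 and 1.20 in TKO (log2 fold change -3.73 and -5.03). Grhl2, a transcription factor known to activate Cdh1, fell by 2.35 ± 0.20 in Ovol2KO and 2.65 ± 0.20 in TKO. Cdh1-Tg also had 7 of 11 lower (9.86% of all genes), with Esrp1 at 0.442 and 0.469 TPM (-5.19) and Grhl2 at -2.72 ± 0.20. In this line 562 and 563 TPM of Cdh1 stood beside less than 1 TPM of Esrp1 and 0.903 and 0.903 TPM of Grhl2. Ovol2 was also low in it, at 1.46 and 1.46 TPM. In Ovol2a/2b-Tg, where 7.62% of all genes were called, Esrp1 (-2.53) and Klf4 (-2.28) were lower and Grhl2 did not pass (-0.28 ± 0.20). In Ovol2a-Tg 3 were lower (3.43% of all genes called) and in Ovol2b-Tg 4 (8.3%). The 1 gene higher in each Ovol2 transgenic line was Ovol2 itself. Ovol3KO had 4 higher, Grhl1, Grhl3, Esrp2 and Klf4, beside 12.8% of all genes called.

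Of 15 catenins and junction linkers tested among 16 listed, 1 passed in Ovol2KO PGCLC and 1 in TKO, in both cases Jup, which encodes plakoglobin. These counts are near the share of all genes called, 8.18% and 10.5%. Jup was at 84.3 and 88.5 TPM in WT PGCLC, 29.5 and 31.0 in Ovol2KO, 27.4 and 29.1 in TKO and 18.1 and 19.1 in Cdh1-Tg, and fell by 1.48, 1.58 and 2.16 on the log2 scale. It also fell in Ovol2a-Tg (-1.06) and Ovol2b-Tg (-1.35). The genes of the list called higher were Pvrl3, which encodes nectin-3, in Ovol2a-Tg (1.26), Ovol2b-Tg (1.04) and Ovol2a/2b-Tg (1.63), Arvcf in Ovol2a/2b-Tg (1.15) and Ctnnal1 in Ovol3KO (1.54). Ctnnb1, which encodes beta-catenin, lay between -0.41 (Ovol3KO) and 0.16 (Ovol2a/2b-Tg), and Ctnna1 between -0.43 (TKO) and 0.34 (Ovol2a/2b-Tg), and neither was called in any line.

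Of 14 other classical cadherins listed, 9 reached the expression filter, and the highest TPM of any of them in a library was 15.4 (Cdh24). Cdh6 was listed at 0 in both WT ESC and both WT EpiLC libraries and was at 8.32 and 6.69 TPM in WT PGCLC. Cdh6 was called higher there than in EpiLC, as was Cdh4 (log2 fold change 1.29), while Cdh15 fell (-1.09), beside 21.1% of all genes called. In Ovol3KO PGCLC, where 12.8% of all genes were called, Cdh6 (1.28 and 0 TPM), Cdh4 and Cdh10 were lower than in WT (-2.49, -1.60 and -1.62). In Ovol2KO and TKO 1 of these 9 was called, Cdh15 (1.02 and 1.35), which is near the 8.18% and 10.5% of all genes called. Cdh15 reached at most 2.37 TPM in any library.

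Summed markers of other cell types also differed between the lines, and their part in the results was not tested. The 8 mesoderm markers, T and Hand1 among them, summed to 1780 to 1866 TPM in WT PGCLC, 2355 to 2634 in Ovol2KO, 2534 to 2550 in TKO and 2355 to 2404 in Ovol2b-Tg. They were near the WT sum in Cdh1-Tg (1873 to 1927) and Ovol2a-Tg (1737 to 1868), where Cdh2 and Cdh11 were also called higher, and below it in Ovol2a/2b-Tg (1056 to 1212) and Ovol1KO (1035 to 1662). They summed to 67.4 to 172 TPM in Ovol3KO, the line with the lowest Cdh2 and Cdh11, and the 6 PGCLC markers to 346 to 357 there, beside 123 to 124 in WT and 51.2 to 56.2 in TKO. Ovol3KO PGCLC also had more of the naive markers (428 to 488 TPM beside 207 to 214 in WT) and of the formative markers (335 to 430 beside 180 to 211). The 6 neural markers summed to 117 to 140 TPM there, beside at most 20.6 in WT and 126 to 136 in Ovol3KO EpiLC. Tubb3 reached 132 TPM in PGCLC, while Sox1, Pax6, Pax3, Neurog2 and Map2 were each at most 5.8.

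The 9 fibroblast markers summed to 31.1 to 40.8 TPM in WT PGCLC, 158 to 165 in Ovol2KO, 338 to 341 in TKO, 320 to 338 in Cdh1-Tg and at most 11.1 in Ovol3KO. They summed to 234 to 286 TPM in Ovol2b-Tg and 110 to 194 in Ovol2a-Tg, where Cdh11 was also called higher. In Ovol2a/2b-Tg and Ovol1KO, where Cdh11 was not called, they summed to 162 to 172 and 25.2 to 43.0 TPM. Over all PGCLC libraries Col1a1 reached 254 TPM, Pdgfrb 59.2, Col1a2 17.0, Pdgfra 15.2, Thy1 12.2 and Col3a1 5.39. The other members of the list, Postn, Lum and Dcn, were at most 0.344, 0.452 and 0.502 TPM in any PGCLC library. The 5 endoderm markers summed to at most 68.8 TPM and the 5 trophoblast markers to at most 18.5 TPM in PGCLC.

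Likeness between genes was described by Pearson's r of the group means of log2(TPM + 1) over the 27 groups. Points share libraries, stages and lines, so these values are descriptions. Cdh2 and Cdh11 were most alike (r = 0.86), and Cdh1 ran against both (-0.72 with Cdh2 and -0.73 with Cdh11). Cdh3 lay with Cdh1 (0.52) and against Cdh2 (-0.74) and Cdh11 (-0.63).

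Of all tested genes, those most like Cdh1 were 1700019D03Rik (0.89), Prrg4 (0.87), Ccdc88c (0.85), Ezr (0.82), which encodes the membrane linker ezrin, and Kdm4c (0.82), and those least like it Lgi4 (-0.93), Cpa6 (-0.91) and Colec11 (-0.90). For Cdh2 they were Casd1, Fut10, Serinc1, Ppme1 and Kitl (all 0.96), of which Kitl encodes the ligand of the Kit receptor, against Pipox, Gab1 (both -0.96) and Kirrel2 (-0.95). For Cdh3 they were Grhl1 (0.90), Slc22a7, Pik3cd (both 0.89), Piwil2 and Slc7a5 (both 0.88), against Tmem33 (-0.88), Rcn1 and Slc25a44 (both -0.87). For Cdh11 they were Bambi, Grin3a, Daam2, Fosl2 (all 0.97) and Hoxd9 (0.96), against Kdm4c, 2610305D13Rik and Cbx7 (all -0.95). Bambi, a decoy receptor of the transforming growth factor family, was at 13.7 and 13.9 TPM in WT PGCLC, 62.2 and 71.6 in Ovol2KO and 6.43 and 6.61 in Ovol3KO.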

How the data were processed

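Poly(A) RNA was sequenced from directional libraries made with 12 PCR cycles, per the labels' protocols. The submitters' processing notes name HISAT2, featureCounts, edgeR and the build mm10, and the sources used here give no versions, annotation or strand setting. The authors deposited TPM values; every library sums to 1000000. Groups came from sample titles; both Ovol2b-Tg EpiLC columns show their group but no replicate number.

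Tests used limma 3.58.1 (R 4.3.3) on log2(TPM + 1) with trend and robust shrinkage, for 14416 genes with TPM of at least 1 in 2 libraries, with Benjamini-Hochberg adjustment over all of them. Lines were compared in fits of the 18 libraries of a stage (9 residual degrees of freedom), and stage changes and their differences between lines in a fit of all 54 (27). With 2 against 2 libraries, a two-sided permutation p cannot fall below 0.33. The script was tested on simulated data. Whole reads were recovered from the TPM of all 17973 genes above 0 (tolerance 0.02 reads). Positions are from GRCm38. Older symbols (Mllt4, Pvrl1 to Pvrl4) stand for Afdn and the nectins. The members are always named; list genes were named when called, at most 8, otherwise the 4 largest; like genes are the 5 highest and 3 lowest r. The members and lists were chosen with earlier results of these data known.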

Additional observations from a re-analysis of the deposited data

Results flagged for a closer look

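For 14 combinations of gene and line, the effect against WT differed between PGCLC and EpiLC by a test of the difference itself (limma, all 54 libraries), with both thresholds passed. On the log2 scale, the PGCLC effect minus the EpiLC effect of Cdh1 was -2.68 in Ovol2KO, -3.48 in TKO, -1.47 in Ovol2a-Tg and -2.21 in Ovol2b-Tg. The same difference for Cdh11 was 2.04 in Ovol2KO, 1.84 in TKO, 1.93 in Ovol2b-Tg, 2.14 in Cdh1-Tg and -2.70 in Ovol3KO. For Cdh2 it was -3.47 in Ovol3KO, -1.16 in Ovol2a/2b-Tg and -1.14 in Cdh1-Tg. The last 2 lines had more Cdh2 than WT already in EpiLC, and their calls were lost without PGCLC WT replicate 1 (-0.95 and -0.93). For Cdh3 it was -1.07 in Ovol2a-Tg, a call lost without PGCLC WT replicate 1 (-0.99) or Ovol2a-Tg replicate 1 (-0.91), and 1.60 in Cdh1-Tg. Groups held 2 libraries, too few to look for a single outlying library.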

How the results depend on the processing

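Alternatives were followed for 175 tested results: line comparisons in PGCLC, changes from EpiLC to PGCLC and WT ESC to EpiLC. Of the other comparisons, mainly results with a BH adjusted p under 0.05 (limma) were taken, so the set was partly selected by outcome. In it 92 were called, of which 10 lost the call under some alternative and 0 changed sign. Of those not called, 9 changed sign. With a pseudocount of 0.1 TPM, Cdh11 was called from WT ESC to EpiLC (-1.22) and in Ovol3KO EpiLC (1.25; 1.16 with limma-voom), and the Cdh2 to Cdh1 ratio in Ovol3KO PGCLC became -5.82. Quantile scaling turned Cdh1 from WT ESC to EpiLC to -0.05. Limma-voom on recovered reads, added after seeing the data, turned Cdh3 in Ovol1KO PGCLC to -0.06 and Cdh2 from WT ESC to EpiLC to 0.01. The causes were not tested. With each library left out in turn, ranges were -1.08 to -0.93 (Cdh3, Ovol2a/2b-Tg PGCLC against WT), -0.20 to 0.22 (Cdh3, Ovol1KO), 0.83 to 1.24 (Cdh2, Ovol2a-Tg), 0.80 to 1.49 (Cdh11, Ovol2a-Tg), -0.11 to 0.31 (Cdh2, Ovol2a/2b-Tg), -1.52 to -0.29 (Cdh2, Ovol1KO), -0.04 to 0.15 (Cdh1, WT ESC to EpiLC), -0.05 to 0.01 (Cdh11, TKO against Ovol2KO), -0.28 to 0.03 (Cdh3, Ovol2a-Tg against TKO), -0.05 to 0.12 (Cdh11, Ovol2b-Tg against TKO), and, for the Cdh2 effect in PGCLC minus EpiLC, -0.32 to 0.10 (Ovol2KO) and -0.37 to 0.04 (TKO).

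Differences between replicate numbers correlated at -0.21 to 0.20 between groups of a stage. They correlated over 0.1 in 3 of 36 ESC, 0 of 28 EpiLC and 1 of 36 PGCLC pairs of groups. Negative values were not counted, so a batch under swapped numbers was not looked for. A replicate block changed 0 calls of the members (Cdh1 in TKO PGCLC, -3.89). It cannot move the differences themselves, because each group in that fit held both numbers. The Ovol2b-Tg EpiLC pair differed by little more than counting noise (chi-square over its degrees of freedom, 1.05), and averaging it, also added later, changed no call of the 9 results it touches. Over all genes, the count of calls moved by over 1.5 times in 8 of 58 comparisons with a pseudocount of 0.1 (1.54 to 2.09 times), 5 of 58 without the filter (0.36 to 0.64 times), 24 of 58 with limma-voom (0.1 to 3.69 times), 2 of 24 with all 54 libraries, 8 of 24 with only the 4 libraries compared (at most 0.57 times) and 15 of 58 with a library left out. The 96 calls in Ovol1KO PGCLC became 35 without the filter, 158 with all 54 libraries, 0 with the 4 libraries of the pair, 19 with limma-voom and 13 to 489 with a library left out; the 494 in Ovol2a-Tg PGCLC became 866 with limma-voom and 290 without Ovol2a-Tg replicate 2.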
